A study of Homo sapiens with 16 samples.

Results

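The E2F factors, their DP partner TFDP1 and the retinoblastoma pocket proteins were followed in MDA-MB-231 cells, a human triple-negative breast cancer line, with and without introduced tristetraprolin (TTP, encoded by ZFP36). The members are the 10 genes E2F1, E2F2, E2F3, E2F4, E2F7, E2F8, TFDP1, RB1, RBL1 and RBL2, taken by gene name from a table of 14857 genes, and each was found there in 1 row. Clones TTP_E11 and TTP_H3 carry a TTP plasmid, while EV_A and EV_B carry an empty vector (EV). Each of these groups is 1 stably transfected clone sequenced in 4 biological replicates, 16 libraries in all. All 4 clones also carry a tet-off system, in which doxycycline holds the introduced gene silent. Cultures were kept in G418 and hygromycin B, and the TTP clones also in doxycycline at 2 µg/mL, a drug the labels name for those clones alone. These agents were washed out for 24 h or longer before the experiments, so the history with doxycycline goes with the arm and cannot be told apart from TTP. With 2 clones in each arm, p-values measure how cultures of the same clone vary, not how clones vary.

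ZFP36 stood at 10482 ± 337 normalized counts in TTP_E11 and 14365 ± 811 in TTP_H3, against 259 ± 26.3 in EV_A and 222 ± 8.80 in EV_B (mean ± SD, n = 4 each), although the titles of 7 TTP libraries say EV; groups follow the library names. Reads on the listed genes numbered 14380767 to 22066098 per library, and the members had between 149 (E2F2) and 4129 (TFDP1) reads in a library. Markers of a mesenchymal basal line were abundant, with VIM at 23174 and 22150.4 in TTP_E11 and TTP_H3, against 32735 and 32201 in EV_A and EV_B. Of the 5 markers of that type, 4 were lower in TTP and 1 did not pass. Their summed level was 88695 to 91278 per library in TTP_E11 and 86447 to 90048 in TTP_H3, against 113488 to 115584 in EV_A and 113981 to 117289 in EV_B. Of the luminal markers, ESR1, PGR and FOXA1 have no row in the table, and of 5 measured (KRT8, KRT18, KRT19, GATA3 and TFF1) 4 were lower in TTP and 1 did not pass, with KRT8 alone concordant. Their summed level was 26320.1 to 27569 in TTP_E11 and 25684 to 27836 in TTP_H3, against 31940.1 to 33527 in EV_A and 25009 to 30205 in EV_B. The endothelial markers PECAM1, CDH5 and VWF have no row, but both measured ones, KDR and ESAM, were concordant and higher, with a summed level of 371 to 421 in TTP_E11 and 353 to 446 in TTP_H3, against 192 to 202 in EV_A and 181 to 216 in EV_B. The immune markers PTPRC and CD3E have no row, and of 3 measured CSF1R was lower and CD68 and LYZ did not pass (summed level 73.6 to 85.7 in TTP_E11 and 63.8 to 114 in TTP_H3, against 153 to 180.2 in EV_A and 102 to 122 in EV_B). The part of these markers in the members' changes was not tested. Replicate 3 of TTP_H3 and replicate 4 of EV_B lay farthest from the other libraries of their clones, with root mean square deviations of 0.215 and 0.170 on the log2 scale, against 0.0916 to 0.139 in the others. Values below are normalized counts, which are reads scaled by a size factor for each library. They are relative to the other RNA of a library, so fewer cells in a phase of the cycle and less RNA per cell cannot be told apart.

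E2F factors bind DNA with a DP protein and control the genes that take cells from G1 into S phase. E2F1, E2F2 and E2F3 are known mainly as activators and E2F4 mainly as a repressor that works with pocket proteins, while the atypical E2F7 and E2F8 repress without a DP partner or a pocket protein. The pocket proteins RB1 (pRb), RBL1 (p107) and RBL2 (p130) bind E2F factors and hold their targets silent until cyclin-dependent kinases phosphorylate them. RBL1 and RBL2 also join E2F4 and the MuvB core in the DREAM complex, which holds cell cycle genes down in resting cells. Several genes of the family, E2F1 among them, are themselves E2F targets, so the system feeds back on itself.

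All 10 members differed between the TTP and EV arms by limma at an adjusted p under 0.05, a call that 70.0% of all 14857 genes also received. Of the 10, 7 were lower and 3 higher in TTP, against 34.6% and 35.4% of all genes. E2F1, E2F7, E2F8, TFDP1, RB1 and RBL1 were lower whichever TTP clone was set against whichever EV clone (4 contrasts), which is called concordant here. These are 6 of 10 members, and 19.5% of all genes were concordant and lower. The same 6 were lower in every TTP library than in any EV library, a separation seen in this direction for 16.2% of all genes and in either direction for 31.8%. No member was concordant and higher (19.0% of all genes were). The median log2 change of the 10 was -0.38, and that of all genes was 0.00066. All 6 changes were below 2-fold, and 13.7% of all genes changed by more than E2F8, the member with the largest change in this contrast.

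**Figure D1:**
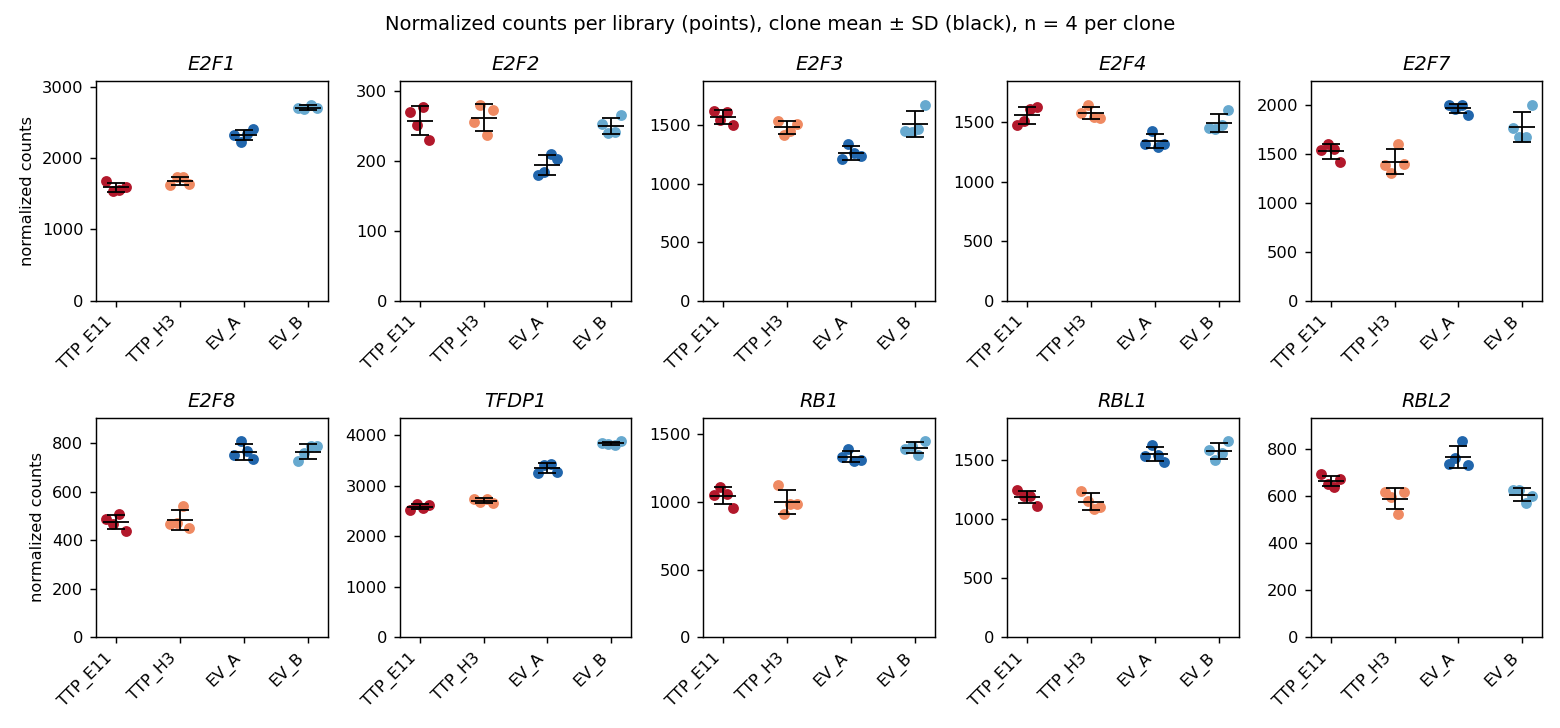
Normalized counts of the 10 members (vertical axes, each from 0) in the libraries of the 4 clones (points, n = 4 per clone), with the mean and SD in black. E2F1, E2F7, E2F8, TFDP1, RB1 and RBL1 are lower in all TTP libraries than in all EV libraries, while E2F2, E2F3, E2F4 and RBL2 overlap between the arms.

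Among the activators, E2F1 fell, while E2F2 and E2F3 did not. E2F1 (chromosome 20, 33675683 to 33686404, minus strand, GENCODE 29 on GRCh38, as for all gene positions below), which drives entry into S phase and when in excess can also trigger apoptosis, had 1673, 1544, 1547 and 1595 normalized counts in the libraries of TTP_E11 and 1618, 1729.7, 1729.7 and 1637 in those of TTP_H3, against 2321, 2232, 2334 and 2408 in EV_A and 2698, 2686, 2752 and 2704 in EV_B. The highest TTP library lay well below the lowest EV library, and among the EV clones B was above A. E2F1 fell by 34.9% (log2 change -0.62 ± 0.027 SE, adjusted p = 1.1e-19). The 3′ UTR of E2F1 holds AU-rich letters of the kind TTP binds. They are shown here, 5′ to 3′ as RNA with the letters of the heptamer UAUUUAU in capitals, because E2F1 is the member with the most such matches (3 in 1049 bases).
E2F1, chr20:33676155-33676183, minus strand: uaauggagcguUAUUUAUuuaucgaggcc
E2F1, chr20:33676151-33676179, minus strand: ggagcguuauuUAUUUAUcgaggccucuu
E2F1, chr20:33675997-33676025, minus strand: ccugggugauuUAUUUAUugggaaaguga
The first 2 of these overlap and begin 560 and 564 bases after the stop codon, and the last begins 718 bases after it. The first and the last also hold the longer nonamer UUAUUUAUU.

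E2F3 (chromosome 6, 20401906 to 20493715, plus strand), an activator needed for proliferation of many cell types, had 1625, 1546, 1615 and 1501 normalized counts in the libraries of TTP_E11 and 1541, 1420.4, 1456 and 1515 in those of TTP_H3, against 1213, 1344, 1263 and 1236 in EV_A and 1456, 1442, 1466 and 1679 in EV_B. Every TTP library lay above those of EV_A, but TTP and EV_B libraries overlapped. Its log2 change over both arms was 0.14 (adjusted p = 0.000275), but it was 0.059 and -0.024 in TTP_E11 and TTP_H3 against EV_B alone, where neither passed (adjusted p = 0.288 and 0.677). E2F2 (chromosome 1, 23506430 to 23531220, minus strand), the activator with the fewest reads here, had 269.6, 252, 277 and 230.4 normalized counts in the libraries of TTP_E11 and 256, 281, 237 and 274 in those of TTP_H3, against 179.7, 184, 209.6 and 202 in EV_A and 253, 239, 242 and 265 in EV_B. It too was above EV_A and overlapped EV_B. E2F2 changed by 0.24 on the log2 scale over both arms (adjusted p = 0.000608), but against EV_B alone its changes in TTP_E11 and TTP_H3 were 0.04 (95% confidence interval -0.13 to 0.21) and 0.067 (-0.10 to 0.24).

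E2F4 (chromosome 16, 67192169 to 67198918, plus strand), the repressor that carries the pocket proteins of resting cells to DNA, lay between 1478 and 1647 normalized counts in the 8 TTP libraries (median 1559.9), against 1295 to 1603 in the 8 EV libraries (median 1432). The arms overlapped. As for E2F2 and E2F3 the gap was to EV_A, with log2 changes of 0.22 and 0.24 in TTP_E11 and TTP_H3 against EV_A, and 0.061 and 0.08 against EV_B, where neither passed (adjusted p = 0.239 and 0.122). So the 3 members called higher in the averaged contrast were higher than EV_A but not shown to be higher than EV_B.

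Both atypical repressors fell. E2F8 (chromosome 11, 19224063 to 19241620, minus strand), which represses E2F1 and other targets late in S phase, had 489, 468, 507 and 439.6 normalized counts in the libraries of TTP_E11 and 467, 472, 543 and 451 in those of TTP_H3, against 750.2, 808, 766 and 733 in EV_A and 726, 758, 788 and 789 in EV_B. The TTP clones resembled each other, the EV clones likewise, and no TTP library reached an EV library. E2F8 fell by 37.3% (log2 change -0.67 ± 0.042 SE, adjusted p = 1.74e-15). E2F7 (chromosome 12, 77021247 to 77065580, minus strand), its close relative, had 1535, 1602, 1545 and 1415 normalized counts in the libraries of TTP_E11 and 1385, 1304, 1598 and 1395 in those of TTP_H3, against 2003, 1955, 2002 and 1901 in EV_A and 1766, 1671, 1673 and 1996 in EV_B. Here the gap was narrow, with the highest TTP library at 1602 and the lowest EV library at 1671. E2F7 fell by 21.3% (log2 change -0.35 ± 0.04 SE, adjusted p = 2.62e-08), with changes between -0.47 (TTP_H3 against EV_A) and -0.22 (TTP_E11 against EV_B).

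TFDP1 (chromosome 13, 113584721 to 113641470, plus strand) encodes DP1, with which the typical E2F factors must pair to bind DNA well. It had 2525, 2639, 2566 and 2624 normalized counts in the libraries of TTP_E11 and 2748, 2675, 2748 and 2659 in those of TTP_H3, against 3253, 3416, 3441 and 3282 in EV_A and 3845, 3819, 3810.1 and 3883 in EV_B, so that it was lowest in the TTP clones and highest in EV_B, with no overlap between the arms. It fell by 26.2% (log2 change -0.44 ± 0.023 SE, adjusted p = 1.7e-17). The other DP gene, TFDP2, went the opposite way and was concordant, with 1234 ± 40.7 normalized counts in TTP_E11 and 1074 ± 42.6 in TTP_H3, against 726 ± 37.0 in EV_A and 716 ± 40.8 in EV_B (log2 change 0.67, adjusted p = 1.67e-17). Per kb of exon, the sum over all listed exons of a gene, TFDP1 remained abundant in the TTP clones, at 692 ± 14.1 and 724 ± 12.6 in TTP_E11 and TTP_H3, against 895 ± 25.2 and 1026 ± 8.67 in EV_A and EV_B (mean ± SD, n = 4 each).

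Of the pocket proteins, RB1 and RBL1 fell by the same share and the outcome for RBL2 turned on the EV clone. RB1 (chromosome 13, 48303726 to 48599436, plus strand), the tumour suppressor pRb, had 1052, 1107, 1059 and 959 normalized counts in the libraries of TTP_E11 and 1125, 909.5, 984 and 987 in those of TTP_H3, against 1332, 1389.6, 1302 and 1311 in EV_A and 1394, 1416, 1347 and 1448 in EV_B. Every TTP library was below every EV library. RB1 fell by 25.3% (log2 change -0.42 ± 0.037 SE, adjusted p = 6.07e-12). RBL1 (chromosome 20, 36996349 to 37095995, minus strand), which encodes p107 and is itself an E2F target, had 1244, 1197, 1192 and 1115 normalized counts in the libraries of TTP_E11 and 1242, 1157, 1088 and 1104 in those of TTP_H3, against 1539, 1632, 1544 and 1484 in EV_A and 1583, 1505, 1559 and 1659.7 in EV_B. It fell by 25.3% (log2 change -0.42 ± 0.033 SE, adjusted p = 3.98e-13), again with no overlap. RBL2 (chromosome 16, 53433977 to 53491649, plus strand), which encodes p130, the pocket protein of resting cells, had 692, 652, 639 and 671 normalized counts in the libraries of TTP_E11 and 617, 596, 522 and 617 in those of TTP_H3, against 735, 761, 832 and 730.5 in EV_A and 626, 626, 571 and 601 in EV_B. The libraries of EV_A were highest, and those of EV_B lay among the TTP libraries. Its log2 change of -0.12 over both arms passed (adjusted p = 0.00822) but was -0.20 and -0.38 in TTP_E11 and TTP_H3 against EV_A, and 0.13 and -0.046 against EV_B (adjusted p = 0.0523 and 0.521). The end of RBL2 overlaps AKTIP on the other strand over 610 bases of exon (8.33% of the exon length of RBL2). RBL2 also shares 721 bases (9.85%) with AC007342.6 on the other strand, and RBL1 shares 211 bases (3.54%) with AL136172.1. AC007342.6 and AL136172.1 have no row. The labels do not say whether strand was used in counting, so reads in these stretches cannot be told apart. AKTIP had 249 ± 25.4 normalized counts in TTP_E11 and 269 ± 19.2 in TTP_H3, against 249 ± 24.2 in EV_A and 283 ± 19.5 in EV_B (log2 change -0.035, adjusted p = 0.618).

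Taken clone by clone, 10 members passed against EV_A and 6 against EV_B, in both TTP clones. These contrasts share libraries, so their counts are not independent. Against EV_A all 10 members passed in TTP_E11 (3 higher and 7 lower), beside 63.1% of all genes (31.8% higher and 31.3% lower). All 10 also passed in TTP_H3 against EV_A (3 higher and 7 lower), beside 64.0% of all genes (32.0% higher and 31.9% lower). Against EV_B the 6 concordant members alone passed, all lower, in TTP_E11, beside 59.4% of all genes (29.9% higher and 29.5% lower), and in TTP_H3, beside 59.5% of all genes (29.8% higher and 29.7% lower). Against the mean of both EV clones 9 members passed in TTP_E11 (3 higher and 6 lower), beside 64.6% of all genes (32.6% higher and 32.0% lower), and 10 in TTP_H3 (3 higher and 7 lower), beside 64.7% of all genes (32.7% higher and 32.0% lower). The member that separated these counts was RBL2, with log2 changes of -0.036 in TTP_E11 (adjusted p = 0.552) and -0.21 in TTP_H3 (adjusted p = 0.000439).

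The TTP clones were then set against each other. Of the 10 members only RBL2 differed between TTP_H3 and TTP_E11, being lower in TTP_H3 (log2 change -0.18, adjusted p = 0.0434). Of all genes 11.7% differed, 6.35% higher and 5.32% lower in TTP_H3. That call was lost with edgeR (adjusted p = 0.0515), with DESeq2 (0.0572) and with the replicate number as a block (0.0508). It was also lost when any 1 of 7 libraries was left out, namely replicates 1 to 4 of TTP_E11, 2 and 3 of TTP_H3 and 2 of EV_A. The adjusted p was then 0.0536 to 0.151, and the log2 change was -0.12 without replicate 3 of TTP_H3, the smallest in size. For the 9 other members the 95% confidence intervals of this difference lay within -0.22 and 0.20 on the log2 scale. E2F1 was 0.078 (0.0016 to 0.16, adjusted p = 0.188) and E2F8 was 0.021 (-0.10 to 0.14).

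The EV clones, which both lack the TTP plasmid, differed more often. Between EV_B and EV_A 7 of the 10 members passed, 5 higher and 2 lower in EV_B, against 36.8% of all genes (20.2% higher and 16.6% lower). The log2 changes of those higher in EV_B were 0.37 for E2F2, 0.26 for E2F3, 0.22 for E2F1, 0.20 for TFDP1 and 0.16 for E2F4. RBL2 was lower in EV_B, by a log2 change of -0.33 (adjusted p = 3.02e-05), and so was E2F7, by -0.15 (adjusted p = 0.0413). The call of E2F7 was lost with the replicate number as a block (adjusted p = 0.0626). It was also lost when any 1 of 9 libraries was left out, namely replicates 1 and 3 of TTP_E11, 1 of TTP_H3, 1 to 3 of EV_A and 1 to 3 of EV_B (adjusted p 0.0503 to 0.13). The 3 that did not pass were E2F8 (0.0023, 95% confidence interval -0.12 to 0.12), RBL1 (0.025, -0.07 to 0.12) and RB1 (0.072, -0.034 to 0.18). For E2F2, E2F3, E2F4 and RBL2 the difference between the EV clones was larger in size than the averaged difference between the arms, a comparison that was not tested. For E2F1 and TFDP1 it was smaller, and the TTP clones lay below both EV clones.

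**Figure D2:**
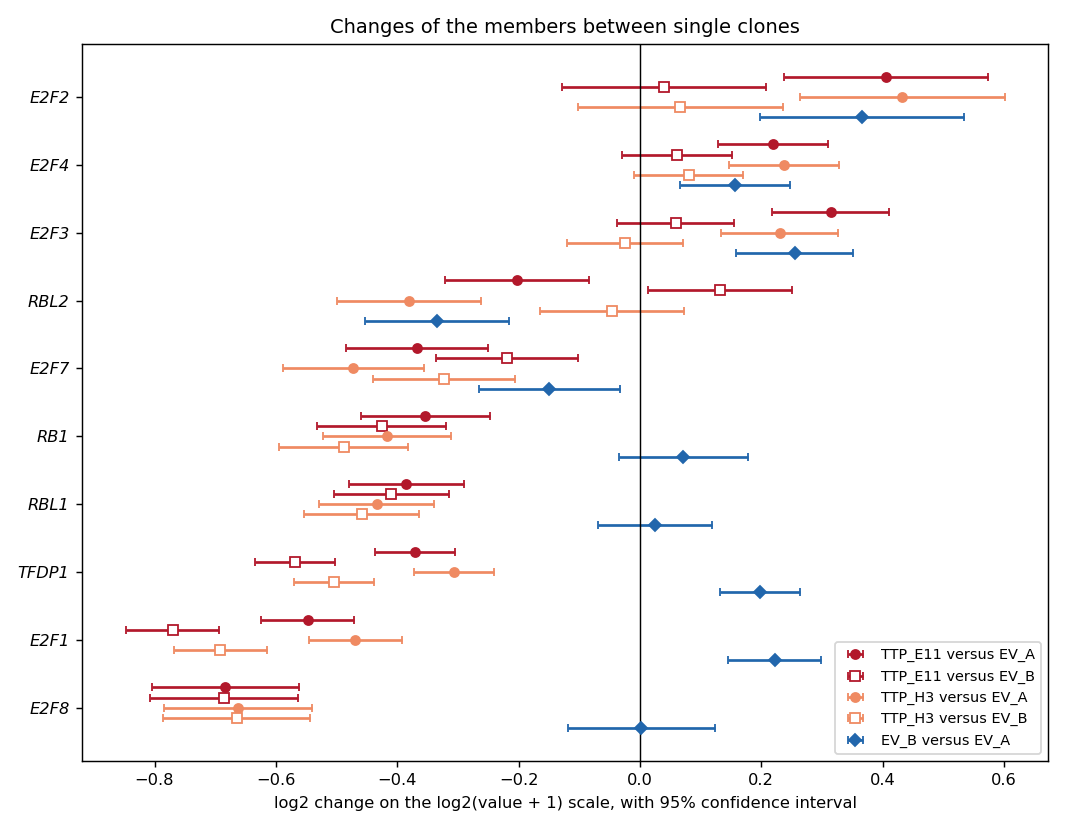
Log2 changes of the 10 members with 95% confidence intervals (horizontal axis) in the 4 contrasts between single TTP and EV clones (red and orange; circles against EV_A, open squares against EV_B) and between the EV clones (blue diamonds). All 4 contrasts lie left of 0 for the 6 concordant members, and the changes of E2F2, E2F3 and E2F4 against EV_B lie near 0. Against EV_B, RBL2 lies at 0.13 (0.013 to 0.25) in TTP_E11 and at -0.046 in TTP_H3, and neither passed after adjustment.

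Levels were compared between members per kb of exon, over the 16 libraries. TFDP1 and E2F1 were the most abundant, at means of 834 and 829 normalized counts per kb, above 93.2% and 93.1% of listed genes. E2F4 followed at 416, then E2F3, E2F7, RBL1, RB1 and E2F8 between 282 and 150.3, and RBL2 and E2F2 came last at 89.5 and 44.1. The order of 2 pairs of neighbours was not the same in all clones. E2F1 was below TFDP1 in TTP_E11 (635 ± 24.0 per kb) and in TTP_H3 (671 ± 23.8) with no overlap of libraries, but it was above TFDP1 in EV_B (1083 ± 11.6), and in EV_A (928 ± 28.7) their libraries overlapped. E2F3 was above E2F7 in both TTP clones (304 ± 11.3 against 242 ± 12.5 per kb in TTP_E11, and 287 ± 10.6 against 225 ± 19.9 in TTP_H3). It was below E2F7 in EV_A (245 ± 11 against 312 ± 7.68), and in EV_B the libraries of the 2 overlapped (293 ± 21.8 against 282 ± 24.3).

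The makeup of the activators followed from these levels. E2F1 made up 64.4% ± 1.14 of the summed E2F1, E2F2 and E2F3 per kb in TTP_E11 and 66.7% ± 1.5 in TTP_H3, against 76.8% ± 1.14 in EV_A and 76.2% ± 1.28 in EV_B (SD, n = 4 each). The share of E2F3 was 30.9% ± 0.818 and 28.6% ± 1.42 in TTP_E11 and TTP_H3, against 20.3% ± 1.17 and 20.6% ± 1.19 in EV_A and EV_B. For both genes the shares of the TTP libraries did not overlap those of the EV libraries. E2F1 was thus the most abundant activator transcript in every clone. Among the pocket proteins RBL1 held the largest share in all clones, between 44.1% and 46.9%, and RB1 held 35.8% to 38.5%. The share of RBL2 was 20.1% ± 1.01 and 18.8% ± 1.16 in TTP_E11 and TTP_H3, against 18.3% ± 1.02 in EV_A and 14.7% ± 0.638 in EV_B, so EV_B was the clone apart. E2F7 held 67.8% ± 1.07 and 65.9% ± 1.04 of the atypical factors in TTP_E11 and TTP_H3, against 62.8% ± 0.998 and 60.3% ± 1.96 in EV_A and EV_B. These shares are descriptions and were not tested.

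**Figure D3:**
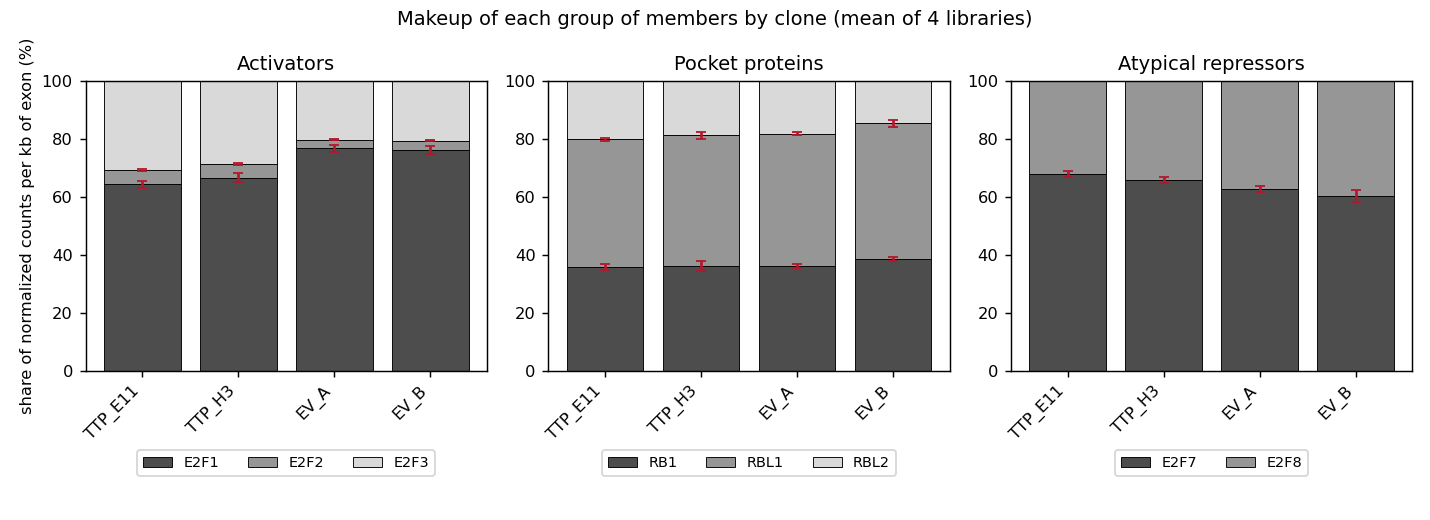
Share of each gene (vertical axis, percent of summed normalized counts per kb of exon) within the activators, the pocket proteins and the atypical repressors, as means of the 4 libraries of each clone, with the SD in red at the upper edge of each segment but the last. E2F1 takes a smaller and E2F3 a larger share of the activators in the TTP clones, while the pocket proteins keep nearly the same makeup apart from RBL2 in EV_B.

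Since TTP binds AU-rich elements, the 3′ UTR of the principal transcript of each member in GENCODE 29 was searched for AUUUA, the heptamer UAUUUAU and the nonamer UUAUUUAUU, on the transcript strand. Each longer motif contains the shorter ones. All 10 members held AUUUA, as did 69.8% of 12567 listed genes with an annotated 3′ UTR. The heptamer was found in 8 of 10 members and in 32.8% of those genes. The nonamer was found in 2 members, E2F1 and E2F7, and in 8.58% of the genes. The 3′ UTRs of the members ran from 595 bases (E2F8) to 3450 (E2F2). Only those of E2F1, E2F4 and E2F8 were shorter than the median of those genes, 1108 bases. The part of length in the members' matches was not tested. TFDP1 and E2F4 lacked the heptamer. TFDP1 fell in every contrast and E2F4 did not, and of the 4 members that were not concordant E2F2, E2F3 and RBL2 held it. A site of each of the members E2F7, E2F8, RB1 and RBL1, which fell, and of E2F3, which did not, is printed for comparison with E2F1, with the heptamer in capitals (GRCh38).
E2F7, chr12:77023522-77023550, minus strand: uccuaugguguUAUUUAUuuuguuccuga
E2F8, chr11:19224104-19224132, minus strand: uauggaaaaauUAUUUAUaaaauguauuu
RB1, chr13:48480249-48480277, plus strand: uuagucauuguUAUUUAUacaagauugaa
RBL1, chr20:36998595-36998623, minus strand: gcuuuuuaaaaUAUUUAUccaaaauguag
E2F3, chr6:20492671-20492699, plus strand: auguaaugccgUAUUUAUuguuuuuaaaa
Over all listed genes, 33.2% of 4121 genes with the heptamer were concordant and lower, against 16.2% of 8446 without it, whose 3′ UTRs are shorter (median 2395 and 731 bases). With 3′ UTRs of 1000 to 2000 bases alone, the shares were 31.6% of 943 and 18.5% of 1864. Concordant and higher were 13.5% of all genes with the heptamer and 25.1% of those without it. Within that range of lengths these shares were 12.3% and 25.2%. What lies behind these shares was not tested. A match is a run of letters and does not show that TTP binds there.

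**Figure D4:**
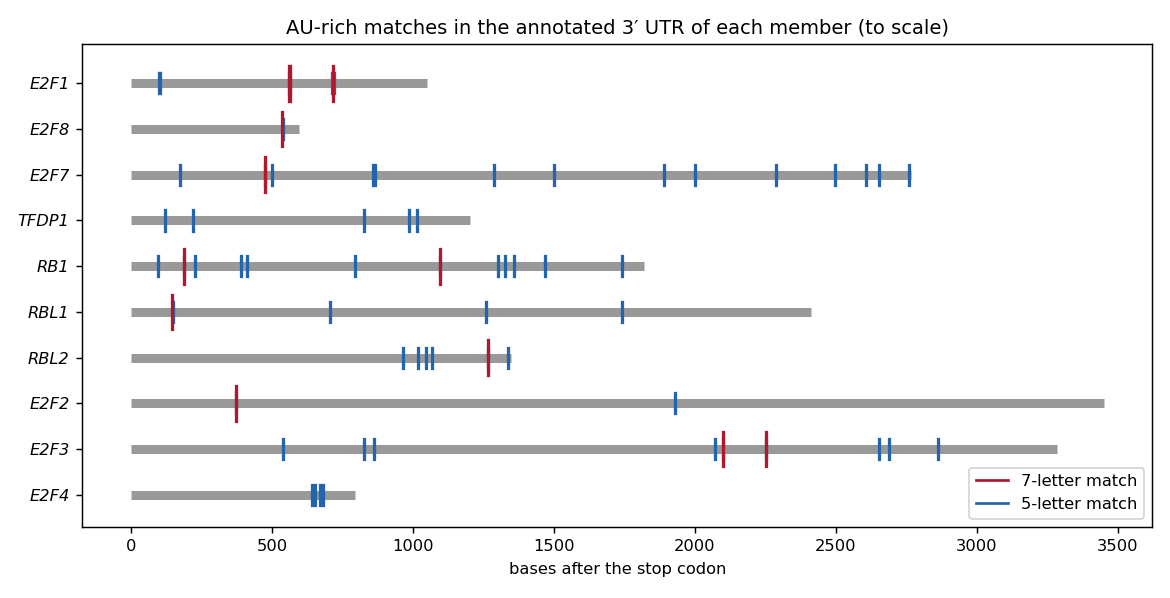
The annotated 3′ UTR of each member drawn to scale from the stop codon (horizontal axis, bases), with matches to the AU-rich pentamer in blue and to the heptamer in red. E2F1 carries 3 heptamer matches, of which 2 overlap, in a 3′ UTR of 1049 bases, and TFDP1 and E2F4 carry none.

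Promoters were read from RefSeq (GRCh38.p14) as 250 bases before to 50 bases after the start of a gene, and 8 of 10 members were matched. The promoters of E2F8 and RB1 were not read here. The E2F motif was searched on both strands as TTTCCCGC, TTTCGCGC, TTTGCCGC or TTTGGCGC. It was found in 5 of these 8 promoters, those of E2F1, E2F2, E2F3, TFDP1 and RBL1, and in 5.59% of 9024 listed genes' promoters. On the list of G1/S targets it was in 17 of 31 promoters. E2F1 and RBL1 each had 2 matches, as had 0.288% of all promoters. With the 7 letters that drop the first T, 6 of 8 members matched, E2F7 being added, against 21.3% of all. The promoters of 3 members that fell and that of E2F2, which did not, are printed on the strand of the gene with the E2F matches in capitals.
E2F1, chr20:33686336-33686635, minus strand: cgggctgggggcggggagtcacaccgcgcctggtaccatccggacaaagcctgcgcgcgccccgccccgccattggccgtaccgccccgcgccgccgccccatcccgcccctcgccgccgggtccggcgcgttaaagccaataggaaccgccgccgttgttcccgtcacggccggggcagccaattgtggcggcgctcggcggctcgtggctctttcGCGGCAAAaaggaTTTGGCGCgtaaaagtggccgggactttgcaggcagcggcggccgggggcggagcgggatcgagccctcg
RBL1, chr20:37095948-37096247, minus strand: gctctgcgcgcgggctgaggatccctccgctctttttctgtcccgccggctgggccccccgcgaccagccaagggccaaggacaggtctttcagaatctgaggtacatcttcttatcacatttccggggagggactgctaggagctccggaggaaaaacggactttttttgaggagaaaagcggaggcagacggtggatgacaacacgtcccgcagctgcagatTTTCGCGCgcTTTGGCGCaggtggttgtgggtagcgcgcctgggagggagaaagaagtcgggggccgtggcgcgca
TFDP1, chr13:113584503-113584802, plus strand: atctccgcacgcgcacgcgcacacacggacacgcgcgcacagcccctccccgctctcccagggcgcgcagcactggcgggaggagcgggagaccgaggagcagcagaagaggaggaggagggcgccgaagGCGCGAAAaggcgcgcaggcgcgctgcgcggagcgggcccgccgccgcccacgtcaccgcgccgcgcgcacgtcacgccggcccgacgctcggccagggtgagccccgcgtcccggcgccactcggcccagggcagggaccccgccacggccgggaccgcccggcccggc
E2F2, chr1:23531184-23531483, minus strand: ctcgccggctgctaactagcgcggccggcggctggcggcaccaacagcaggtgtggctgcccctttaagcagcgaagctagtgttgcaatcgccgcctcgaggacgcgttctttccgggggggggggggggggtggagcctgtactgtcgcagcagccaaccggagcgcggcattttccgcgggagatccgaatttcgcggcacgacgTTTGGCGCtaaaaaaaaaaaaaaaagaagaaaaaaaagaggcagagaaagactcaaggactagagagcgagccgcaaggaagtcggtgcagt
In E2F1 the matches begin 33 and 20 bases before the start, the first on the other strand, and in RBL1 26 and 16 bases before it. Of the 8 promoters read, those with the match belonged to 3 members that fell (E2F1, TFDP1, RBL1) and 2 that were not concordant (E2F2, E2F3), and those without it to E2F7, which fell, and to E2F4 and RBL2.

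Other genes of the pathway were counted from lists chosen with earlier results of these data known, and the share of all genes, 35.4% higher and 34.6% lower, stands beside each. For the concordant counts of each list, the shares of all genes were 19.0% higher and 19.5% lower. Of 3 other family genes measured, 3 were higher in TTP, but TFDP2 alone was concordant. E2F5, a repressor like E2F4, had a log2 change of 0.17 (adjusted p = 0.00917), and E2F6, which represses without pocket proteins, one of 0.16 (adjusted p = 0.0019). Of the 8 genes of the MuvB core and its partners, 2 were higher, 6 lower and 0 did not pass, with a median of -0.16. The concordant ones were MYBL1 and FOXM1. MYBL1, a MYB transcription factor, had 1109 ± 24.2 normalized counts in TTP_E11 and 1109 ± 67.2 in TTP_H3, against 2147 ± 78.2 in EV_A and 1798 ± 38.9 in EV_B (log2 change -0.83). FOXM1, the activator of mitotic genes, had 2608 ± 59.1 normalized counts in TTP_E11 and 2697 ± 77.6 in TTP_H3, against 3282 ± 93.0 in EV_A and 3954 ± 54.8 in EV_B (log2 change -0.44). MYBL2, an E2F target and the usual MYB partner of MuvB, was higher by 0.42, but the EV clones lay apart (788 ± 31.6 in EV_A and 536 ± 22.9 in EV_B). The core genes LIN9, LIN37, LIN52, LIN54 and RBBP4 had log2 changes of -0.24, 0.23, -0.20, -0.13 and -0.073, and none was concordant.

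The G1/S targets of E2F did not move as a block. Of 43 measured, 18 were higher, 14 lower and 11 did not pass, and 10 and 8 were concordant (median log2 change 0.039). ATAD2, a chromatin cofactor of E2F, had 2927 ± 172 normalized counts in TTP_E11 and 2829 ± 190.1 in TTP_H3, against 4220.2 ± 122 in EV_A and 4626 ± 132 in EV_B (log2 change -0.62). RRM2, the small subunit of ribonucleotide reductase, had a log2 change of -0.62, the thymidylate synthase gene TYMS -0.42 and the replication fork gene CDC45 -0.39. The 10 that were concordant and higher, named after their values were seen, were CDT1, ORC1, MCM3, MCM5, MCM6, MCM7, GINS2, POLE2, PRIM1 and FEN1, with log2 changes between 0.22 (FEN1) and 0.47 (CDT1). CDT1, which loads the MCM helicase at origins, had 1271 ± 24.4 normalized counts in TTP_E11 and 1347 ± 64.5 in TTP_H3, against 850.5 ± 37.3 in EV_A and 1055 ± 118 in EV_B. Of the same list, 34 were higher and 1 lower in EV_B than in EV_A, against 20.2% and 16.6% of all genes.

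Genes of G2 and mitosis that the DREAM complex binds were lower. Of 30, 1 was higher, 28 lower and 1 did not pass, with 23 concordant and lower and a median of -0.41. CCNA2 (cyclin A2), CENPE, ANLN and HMMR had log2 changes of -0.72, -0.68, -0.64 and -1.01. Between the EV clones, 14 of the 30 were higher and 1 lower in EV_B than in EV_A, against 20.2% and 16.6% of all genes. Between the TTP clones, 9 were higher and 0 lower in TTP_H3 than in TTP_E11, against 6.35% and 5.32%. In TTP versus EV this list moved in the same direction as the 6 concordant members. The part of cell cycle phase in the members' changes was not tested.

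Among the 10 cyclins and kinases that phosphorylate pocket proteins, 4 were higher, 4 lower and 2 did not pass, with 2 higher and 4 lower ones concordant. The D-type cyclins diverged, with log2 changes of -1.05 for CCND1, 5.04 for CCND2 and 0.41 for CCND3, all concordant, and CDK1, the mitotic kinase, changed by -0.52. All 5 measured CDK inhibitors were lower and 4 were concordant, CDKN2D, CDKN1A (p21), CDKN2C and CDKN1C having log2 changes of -1.96, -0.98, -0.93 and -0.83. Of 15 chromatin partners of pocket proteins, 3 were higher, 7 lower and 5 did not pass (median -0.039), and 2 higher and 5 lower ones were concordant. The histone deacetylases HDAC1 and HDAC2, the remodeller SMARCA4 and the DNA methyltransferase DNMT1 were concordant and lower, with log2 changes of -0.24, -0.28, -0.33 and -0.30. Some genes stand on more than 1 list, so the counts of the lists are not independent. DNMT1 is also counted among the G1/S targets. CCNA2, of the mitosis list, and CCNE2, of the G1/S targets, are also counted among the cyclins and kinases. The concordant higher ones, named after their values were seen, were the deacetylase HDAC3 (0.23) and the remodeller SMARCA2 (0.17). Of 13 genes for turnover and modification of the proteins, 1 was higher, 8 lower and 4 did not pass (median -0.14), and 6 of the lower ones were concordant. The acetyltransferases KAT2B and EP300, the phosphatase subunit PPP1CB, which can dephosphorylate pRb, and the ubiquitin ligase MDM2 were concordant and lower, with log2 changes of -0.67, -0.41, -0.37 and -0.34.

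**Figure D5:**
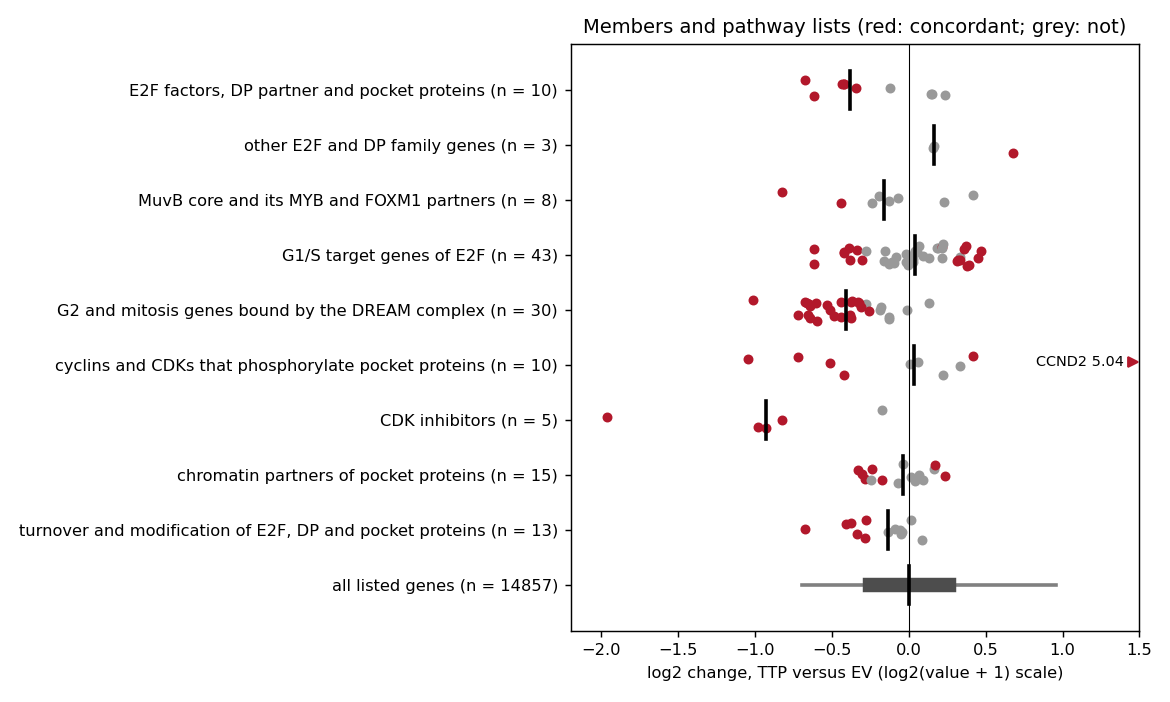
Log2 changes of TTP versus EV (horizontal axis) for the members and each list of pathway genes (points, red where concordant), with the median of each list as a black bar; the bottom line gives the 5th to 95th percentile (thin) and the quartiles (thick) of all 14857 genes. CCND2, at 5.04, is drawn at the right edge as an arrow, the G2 and mitosis list lies mostly below 0, and the G1/S targets lie on both sides.

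Across the 16 libraries the members fell into patterns that are given here as descriptions, since the points share clones and arms. E2F1 and TFDP1 ran most alike of all members (Pearson r = 0.980 of log2 values, n = 16), and RB1 and RBL1 followed (0.965). E2F2 and E2F3 were each other's nearest member (0.830). The most opposed members were E2F4 and E2F7 (-0.737). The gene of the whole table most like each member was TUBG1 for E2F1 (r = 0.992), EIF4G2 for TFDP1 (0.993), KIF14 for E2F8 (0.988), PAK2 for RBL1 (0.979) and HTATSF1 for RB1 (0.978). For the others it was TANK for E2F7 (0.961), SRPK1 for E2F3 (0.952), FAM105A for E2F4 (0.942), AGO1 for E2F2 (0.938) and TIMP1 for RBL2 (0.931).

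In the authors' deposited table, E2F1 had a log2 fold change of -0.62, E2F8 of -0.67, RB1 of -0.42 and RBL1 of -0.42. The authors' deposited table called 6 members lower and 3 higher at an adjusted p under 0.05. Of all 14857 genes it called 4710 lower and 4750 higher at that threshold. In the authors' deposited table RBL2 did not pass (log2 fold change -0.13, adjusted p = 0.125).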

How the data were processed

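RNA of 16 cultures was sequenced from NEBNext Ultra II libraries, per the labels' protocols. Per the submitters' processing notes, the build was GRCh38 and the tools were DESeq2, STAR 2.5.2b, Trimmomatic 0.36, Subread 1.5.2 and featureCounts, without roles or settings. The authors deposited 1 table with a normalized signal per gene and library, which by its values is a read count divided by 1 size factor per library. Per the file headers, a p-value, its adjusted value and a log2 fold change from the authors' own comparison of the arms are given too. No listed gene averaged under 9.68, and rarer genes are not analysed here. Dividing each library by its smallest positive value gave whole reads for 100% of values (tolerance 0.001), but in replicates 1 and 3 of TTP_H3 1 read is worth so nearly 1 that this check is weaker.

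The main test was limma 3.58.1 in R 4.3.3 (robust, with trend) on log2(value + 1) in 1 fit of 4 clone groups, with Benjamini-Hochberg adjustment over all 14857 genes at 0.05. Fold changes are on that scale, which understates low genes. On simulated data it called 89% of 1.5-fold and 91% of 2-fold changes in TTP versus EV. Those data had 200 changed genes and no differences between clones of the same arm. The shares therefore do not cover variation between clones. Other named genes were all other family and MuvB genes and, in each further list, at most 4 concordant genes, ranked by the smallest size of change among their 4 contrasts, with the gene most correlated with each member. No source used here gives the authors' gene models, so exon lengths and 3′ UTRs come from GENCODE 29 (GRCh38). The members, lists and tests were chosen with earlier results of these data known. The recovered reads were also tested with DESeq2 1.42.0 and edgeR 4.0.16. Further alternatives were other scalings, pseudocounts and filters, other models and controls, and leaving out each library.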

Additional observations from a re-analysis of the deposited data

Results flagged for a closer look

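E2F3 stood at 1679 normalized counts in replicate 4 of EV_B, far above the other 3 libraries of that clone. Without that library E2F3 was higher in EV_B than in EV_A by 0.20 on the log2 scale. E2F4 stood at 1424 in replicate 2 of EV_A, above the other 3 of its clone, and without that library its change of EV_B versus EV_A was 0.19. Of 40 groups of 4 values, chance alone would set a library apart in this way in about 1 of 20. RBL2 differed between the TTP clones, being lower in TTP_H3 than in TTP_E11 by a log2 change of -0.18 (limma adjusted p = 0.0434).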

How the results depend on the processing

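E2F1, E2F7, E2F8, TFDP1, RB1 and RBL1 stayed lower in TTP and past the threshold under all 29 alternatives of TTP versus EV, with adjusted p up to 0.0303. The count of concordant members, in either direction, was 6 to 7 over the 25 alternatives with single-clone contrasts. It was 6 whichever library was left out. When each clone's reads were summed into 1 sample, edgeR called 6 members, 0 of them higher. Of all 14857 genes it called 4280, with 2156 higher and 2124 lower. With EV_B alone as control 6 members passed and 0 were higher, and RBL2 changed sign (0.043). In that setting 4793 of the 14857 genes were higher and 4658 lower. RBL2 also failed in the 2-group model and with upper quartile scaling. Between TTP_H3 and TTP_E11, 0 members passed with edgeR, with DESeq2 and with the replicate number as a block (RBL2 adjusted p = 0.0508), against 1; leaving out 1 library gave 0 to 1. The labels do not say whether libraries with the same replicate number were handled together. Same-numbered libraries of different clones showed no common deviation (median r = -0.0058, from -0.10 to 0.14, 24 pairs). Pairs with different numbers had a median of 0.0075 (72 pairs). That check cannot show that the numbers carry no shared handling. The block moved no count of TTP versus EV by over 1.5 times. The cause of these changes was not tested. Among members, E2F2 had the fewest reads and the largest SE (0.0584 in TTP versus EV, against 0.0229 for TFDP1). The part of depth in this was not tested.

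With reads summed per clone the counts of higher and lower genes were 7 and 6 for G1/S targets, 0 and 2 for chromatin partners, 0 and 4 for turnover and 0 and 2 for MuvB, with 0 higher for mitosis and 2 for cyclins and kinases. With EV_B alone, 6 chromatin, 0 turnover and 0 mitosis genes were higher, and with upper quartile scaling 6 and 2 of the first 2. MuvB had 1 higher gene with the filter on low values, the 2-group model, EV_A alone or without the 2 libraries that stood apart (an alternative chosen after seeing the data), and 1 to 2 leaving out a library.

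Differences near 0 changed sign without passing. E2F8 in EV_B versus EV_A was -0.0074, -0.0063, -0.0065 and -0.013 with TMM, upper quartile scaling, edgeR and without those 2 libraries, and -0.017 to 0.029 leaving out 1. RBL1 there was -6.7e-05 without the 2, and -6.7e-05 to 0.050 leaving out 1. In TTP_H3 versus TTP_E11 leaving out 1 gave -0.025 to 0.073 for E2F2, -0.0057 to 0.041 for E2F4 and -0.036 to 0.053 for E2F8, which was -0.036 without the 2. Without replicate 3 of TTP_H3, E2F7 passed there (log2 change -0.16, adjusted p = 0.0189).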
